A study of Homo sapiens with 18 samples.

Results

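RNA levels and RNAPII peaks were examined for 10 human genes of the Hippo pathway output, chosen by name: the coactivators YAP1 and WWTR1, the DNA-binding factors TEAD1, TEAD3 and TEAD4, and the target or partner genes CCN1 (also called CYR61), CCN2 (also called CTGF), ANKRD1, AMOTL2 and AJUBA. They are 10 of the 23604 genes listed in at least 1 RNA-Seq library. These genes and the lists of related genes below were chosen with earlier results of these data known. Each of the 10 had a single entry, found by its gene ID, and each was detected in all 8 libraries. All 10 passed the filter on low counts, which left 16948 genes in the test.

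All samples come from the breast epithelial line MCF10A-Er-Src, in which a v-Src kinase fused to the oestrogen receptor can be switched on with tamoxifen. TAM cells were transformed with the drug and NT cells did not meet it. Both kinds then spent 4 h in DMSO or in triptolide (TPL, at the dose labelled TPL-125nM), a compound that inhibits the XPB subunit of the transcription factor TFIIH, and the groups with TPL are written NT + TPL and TAM + TPL. RNA-Seq was made from 2 replicates per group and RNAPII ChIP-Seq from 2 samples per group with 2 inputs. The fusion kinase is carried by every group, all groups are 1 cell line, and TAM cells differ from NT cells both in Src activity and in having met tamoxifen, which cannot be told apart here.

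YAP1 and WWTR1 (whose protein is called TAZ) carry no DNA-binding domain and act in the nucleus by binding TEAD proteins, which recognise the motif GGAATG. In the Hippo cascade MST kinases activate LATS kinases, and LATS phosphorylates both coactivators, which keeps them in the cytoplasm. CCN1, CCN2 and ANKRD1 are among the most widely used target genes of YAP. AMOTL2 and AJUBA encode proteins that act back on the pathway, AMOTL2 by binding YAP and AJUBA by binding LATS kinases.

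The RNA-Seq libraries held between 7461309 and 8349448 expected counts, of which the 10 genes with the most counts made up 8.06 to 9.78%. These values are shares of a library, which hide any loss that all mRNAs have in common, and fewer cells with an mRNA cannot be told apart from less of it per cell. All 8 mammary epithelial markers examined were detected, with a summed level of 17215 to 19063 FPKM in NT and 8117 to 8398 in TAM cells with DMSO, and of 10578 to 13401 in NT and 4185 to 4568 in TAM cells with TPL. KRT5 and KRT17 carried the lower sum in TAM cells with DMSO (1308 and 1481 FPKM on average, against 6013 and 6714 in NT), whereas 4 of the 8 had higher means there than in NT, namely KRT6A (4343 against 4035), KRT18 (453.7 against 410.2), TP63 (23.6 against 18.4) and LAMB3 (441.9 against 276.2). Of 10 markers of other cell types none was at 0 in every library, and their summed level was 52.3 to 52.7 FPKM in NT and 283.8 to 302.8 in TAM cells with DMSO, and 84.8 to 100.2 in NT and 413.7 to 481.3 in TAM cells with TPL. CD68, which encodes a lysosomal protein, gave most of that sum, with up to 47.2, 301, 89.0 and 473 FPKM in the same order, whereas the leukocyte marker PTPRC measured 0.16 to 0.71 FPKM with DMSO and 1.16 to 2.14 with TPL, and the hepatocyte marker ALB 0 to 0.11 with DMSO and 1.95 to 3.29 with TPL. Their part in the values below was not tested.

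The promoters of the members, which were chosen as genes of this pathway, were searched for short motifs at their start sites. Within 250 bases before and 50 bases after the start of the Ensembl canonical transcript, 7 of the 10 genes held GGAATG or its reverse complement CATTCC, which 11.3% of 19881 protein-coding promoters hold. The stretches below run on the strand of the gene, 5′ to 3′, from 10 bases before the most upstream match to the last base before the start, with GGAATG or CATTCC in capitals, in build hg19. They are given for 4 targets and for 2 of the TEAD genes.
CCN1, chr1:86046324-86046443, plus strand: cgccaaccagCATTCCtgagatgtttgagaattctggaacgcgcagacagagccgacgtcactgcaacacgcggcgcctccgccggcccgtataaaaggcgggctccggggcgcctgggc
CCN2, chr6:132272513-132272691, minus strand: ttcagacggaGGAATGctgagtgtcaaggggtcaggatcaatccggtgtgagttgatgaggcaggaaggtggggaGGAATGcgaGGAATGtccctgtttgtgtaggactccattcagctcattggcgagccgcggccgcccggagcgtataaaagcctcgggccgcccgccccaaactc
ANKRD1, chr10:92680845-92681074, minus strand: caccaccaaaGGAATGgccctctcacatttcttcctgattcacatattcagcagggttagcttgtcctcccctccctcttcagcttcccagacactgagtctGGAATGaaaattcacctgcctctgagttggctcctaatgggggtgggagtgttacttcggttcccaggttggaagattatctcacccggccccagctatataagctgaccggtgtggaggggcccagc
AMOTL2, chr3:134093290-134093368, minus strand: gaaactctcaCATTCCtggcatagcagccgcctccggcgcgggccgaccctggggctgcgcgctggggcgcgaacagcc
TEAD1, chr11:12695945-12695967, plus strand: gcgttcatttCATTCCtgtcctc
TEAD4, chr12:3068540-3068562, plus strand: gcgcgcatctCATTCCagccctc

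The CCN2 promoter held 3 matches, at bases -169, -104 and -95 from the start, and the ANKRD1 promoter held 2, at -220 and -128. CCN1 and AMOTL2 had 1 match each, at -110 and -69. TEAD1 and TEAD4, paralogs on different chromosomes, both had CATTCC at -13 and again across the start, and TEAD4 had it also 8 bases past the start. YAP1 had 1 match at -162, and WWTR1, TEAD3 and AJUBA had no match to these letters in this window. TATAAA stood on the sense strand at -30 in CCN1 and at -32 in CCN2, against 7.02% of all coding promoters. TGANTCA, a loose form of the AP-1 motif with any base at N, was searched on either strand. It occurred in ANKRD1 alone among the 10, as TGATTCA, against 5.40% of all. A match describes letters and is no evidence of binding.

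The first comparison asks how the 10 genes differed between transformed and untransformed cells before TPL. In TAM cells the fitted log2 fold change was below 0 for each of the 10 genes, with a median of -1.41 against -0.03 over all genes tested. CCN1, AMOTL2, CCN2 and AJUBA fell at an adjusted p of at most 0.05 (edgeR quasi-likelihood test, Benjamini-Hochberg adjustment over all genes), whereas 3.39% of all genes tested fell at that threshold. None of the 10 rose. The 2 coactivators, the 3 TEAD genes and ANKRD1 did not pass. Whether the target or partner genes differed as a set from the other members was not tested. At the study's own thresholds (hereafter "called"), which ask for an adjusted p no higher than 0.001 with a log2 fold change of 1.2 or more either way, 0 of the 10 were called by edgeR, against 0.277% of all genes called lower and 0.378% called higher, although 6 were lower at an unadjusted p under 0.05 (10.4% of all genes) and DESeq2 called 4 lower (2.09%). Only the cut-offs are the study's, and the test is not. The study reported larger shares of genes changed in this comparison and with TPL. By scaled counts, 8 of the 10 were lower in both TAM libraries than in both NT libraries, against 28.3% of all genes. The 10 genes were measured in the same libraries, so counts of them are not counts of separate observations.

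The next comparisons ask what TPL did in each kind of cell. They share no library with each other, but each shares its DMSO libraries with the first. In NT cells 6 genes fell at an adjusted p of at most 0.05 (AJUBA, ANKRD1, TEAD3, AMOTL2, YAP1 and TEAD4, against 19.8% of all genes), and WWTR1 rose (17.2%). AJUBA and TEAD3 were called lower, against 2.71% of all genes. In TAM cells AJUBA, TEAD3 and TEAD4 fell (18.6% of all genes) and TEAD1, CCN1 and CCN2 rose (14.3%), and TEAD3 was called lower (2.04% of all genes, with 0.844% called higher). By scaled counts, both TPL libraries lay below both DMSO libraries for 7 of the 10 genes in NT and 4 in TAM cells (33.3 and 36.4% of all genes) and above them for 2 and 4 (36.3 and 38.3%). The median log2 fold change of the 10 was -1.07 in NT cells and -0.11 in TAM cells, beside 0.09 and 0.05 over all genes. The calls at 0.001 depended on the fit, since 0 were left in either kind of cell when only the groups compared were fitted, and with 1 library left out at most 1 was called in NT and at most 2 were called in TAM cells, with 0 as the lowest number in each.

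**Figure D1:**
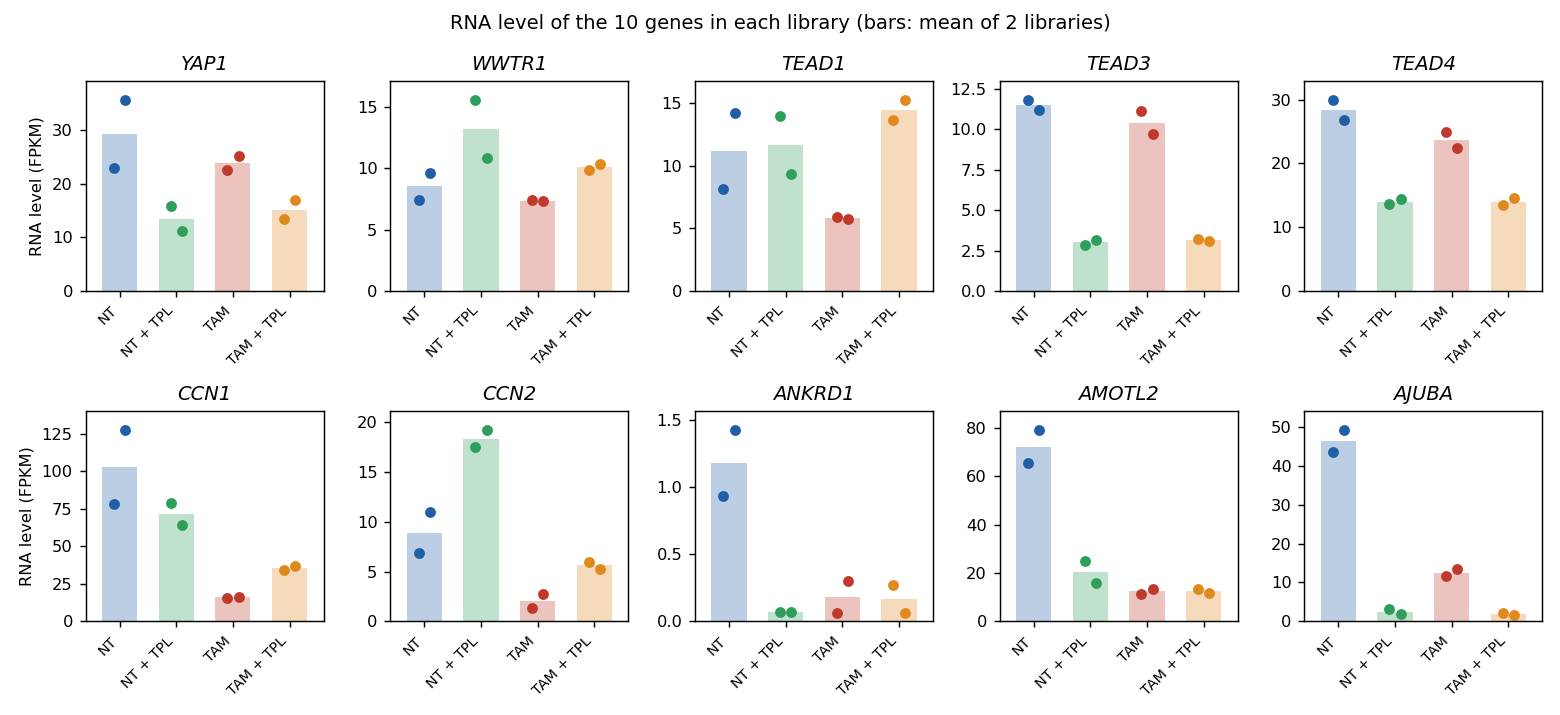
RNA level in FPKM (vertical axes, each starting at 0) of the 10 genes in each of the 4 groups, with 1 point per library and bars at the mean of 2 libraries. CCN1 lay between 78.4 and 127 FPKM in NT and at 15.6 and 16.4 FPKM in TAM cells, and AJUBA was between 1.61 and 3.13 FPKM in all 4 libraries with TPL.

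YAP1, the better known of the coactivators, measured 22.8 and 35.5 FPKM in NT and 22.5 and 25.1 in TAM cells with DMSO, and 15.8 and 11.1 in NT and 13.3 and 17.0 in TAM cells with TPL. All 4 libraries with TPL lay below all 4 with DMSO. With DMSO the TAM values lay within or just below the range of the NT values, and with TPL the ranges of NT and TAM cells overlapped. With TPL, YAP1 fell in NT cells by 1.12 on the log2 scale (SE 0.257, adjusted p = 0.0155 by edgeR), and in TAM cells the change was -0.69 (SE 0.256, adjusted p = 0.0772). Between TAM and NT cells with DMSO it was -0.28 (SE 0.253, adjusted p = 0.623).

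WWTR1, which encodes the second coactivator TAZ, had 7.46 and 9.66 FPKM in NT and 7.41 and 7.30 in TAM cells with DMSO, and 15.6 and 10.8 in NT and 9.84 and 10.4 in TAM cells with TPL. Each TPL library lay above the DMSO libraries of its own kind of cell, the reverse of YAP1. The rise with TPL in NT cells was 0.62 on the log2 scale (SE 0.201, adjusted p = 0.0483 by edgeR) and the change in TAM cells was 0.41 (SE 0.202, adjusted p = 0.156). The rise in NT cells did not pass 0.05 in 7 of 11 other fits, among them scaling to GAPDH (0.23, adjusted p = 0.515).

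The 3 TEAD genes, whose proteins bring the coactivators to DNA, did not behave alike with TPL. TEAD3 measured 11.8 and 11.2 FPKM in NT and 11.1 and 9.72 in TAM cells with DMSO, and 2.87 and 3.16 in NT and 3.24 and 3.10 in TAM cells with TPL. The libraries with and without TPL were far apart in both kinds of cell, while TAM and NT cells were close. TEAD3 was called lower with TPL in NT cells at -1.93 (SE 0.175, adjusted p = 0.00056 by edgeR) and in TAM cells at -1.76 (SE 0.174, adjusted p = 0.00083). TEAD4 measured 29.9 and 26.8 FPKM in NT and 24.9 and 22.4 in TAM cells with DMSO, and 13.6 and 14.4 in NT and 13.5 and 14.5 in TAM cells with TPL. Its groups with and without TPL did not overlap either. It fell by 1.03 in NT cells (SE 0.149, adjusted p = 0.0028 by edgeR) and by 0.79 in TAM cells (SE 0.149, adjusted p = 0.0083).

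TEAD1 followed neither paralog. Its levels were 8.17 and 14.2 FPKM in NT and 5.91 and 5.77 in TAM cells with DMSO, and 14.0 and 9.36 in NT and 13.7 and 15.3 in TAM cells with TPL. The NT and NT + TPL libraries overlapped, whereas both TAM + TPL libraries lay above both TAM libraries. TEAD1 rose with TPL in TAM cells by 1.26 on the log2 scale (SE 0.282, adjusted p = 0.0154 by edgeR), and in NT cells the change was 0.05 (SE 0.276, adjusted p = 0.905). The difference between those changes was 1.21 (SE 0.393, adjusted p = 0.358), so a difference between the kinds of cell was not shown. Its change between TAM and NT cells was -0.92 (SE 0.280, adjusted p = 0.118).

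TEAD3 and TEAD4 are paralogs, and their counts are not fully separate. In 5 of 8 libraries the expected counts of the pair were not whole numbers (within 0.001 counts), and in these 5 their sum was whole, which is how RSEM leaves reads that it divides between 2 genes. The levels of the pair are therefore uncertain to the extent of those shared reads, the number of which the files do not give. WWTR1 and AJUBA also had expected counts that were not whole, in 8 of 8 libraries, so part of their reads was divided with other entries, which were not sought here, and their levels carry the same uncertainty. The other 6 genes had whole counts throughout.

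CCN1 and CCN2, which encode secreted matrix-associated proteins of 1 family, were both lower in TAM than in NT cells. CCN1 measured 78.4 and 127 FPKM in NT and 15.6 and 16.4 in TAM cells with DMSO, and 78.7 and 64.2 in NT and 34.3 and 36.97 in TAM cells with TPL. Every TAM library, with or without TPL, was below every NT library. In TAM cells CCN1 fell by 2.67 on the log2 scale (SE 0.243, adjusted p = 0.0014 by edgeR) with DMSO, and with TPL the difference between TAM and NT cells was -1.03 (SE 0.230, adjusted p = 0.0445).

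With TPL, the fitted change of CCN1 had opposite signs in NT and TAM cells. It rose in TAM cells by 1.11 (SE 0.235, adjusted p = 0.0126 by edgeR), and in NT cells the fitted change was -0.53 (SE 0.226, adjusted p = 0.105). In NT cells the groups overlapped in FPKM, though not in scaled counts. The difference between the TPL effects was 1.64 (SE 0.325, unadjusted p = 0.0015, adjusted p = 0.157 in the edgeR fit), which did not pass.

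CCN2 had 6.82 and 11.0 FPKM in NT and 1.31 and 2.79 in TAM cells with DMSO, and 17.5 and 19.2 in NT and 5.98 and 5.23 in TAM cells with TPL. The TPL libraries lay above the DMSO libraries in both kinds of cell, and the TAM groups lay below the NT groups. TPL gave a rise of 1.4 in TAM cells (SE 0.386, adjusted p = 0.0316 by edgeR) and a change of 1.04 in NT cells (SE 0.355, adjusted p = 0.0574). Between TAM and NT cells CCN2 fell by 2.10 with DMSO (SE 0.386, adjusted p = 0.0224) and by 1.74 with TPL (SE 0.364, adjusted p = 0.0358).

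ANKRD1, which encodes a nuclear and sarcomeric ankyrin-repeat protein and is a standard YAP reporter gene in epithelial cells, was close to the detection limit. Its expected counts were 15 and 23 in NT and 1 and 5 in TAM cells with DMSO, and 1 and 1 in NT and 4 and 1 in TAM cells with TPL. Only the NT libraries held more than 5 counts. Summed over libraries and scaled to depth, the level was 17.8-fold lower in NT + TPL than in NT cells (95% exact interval 4.60 to 152, counting error only) and 6.52-fold lower in TAM than in NT cells (2.73 to 18.9). The edgeR fit gave an adjusted p of 0.0301 for the fall with TPL in NT cells and 0.20 for TAM against NT cells. TAM + TPL stood at 0.89 times TAM (0.215 to 3.50), so no direction could be read at this depth.

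AMOTL2, a member of the angiomotin family, measured 65.4 and 79.1 FPKM in NT and 11.5 and 13.3 in TAM cells with DMSO, and 24.9 and 15.98 in NT and 13.2 and 11.7 in TAM cells with TPL. The NT libraries stood above the other 6, and the TAM and TAM + TPL libraries overlapped. It fell by 1.84 with TPL in NT cells (SE 0.218, adjusted p = 0.0013 by edgeR) and by 2.53 in TAM against NT cells (SE 0.224, adjusted p = 0.0012). With TPL in TAM cells the change was -0.04 (SE 0.217, adjusted p = 0.911). The difference between the TPL effects was 1.80 (SE 0.305, unadjusted p = 0.00061, adjusted p = 0.114 in the same fit).

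AJUBA, which encodes a LIM-domain scaffold protein, had the largest fitted fall with TPL of the 10 genes in both kinds of cell. It measured 43.6 and 49.2 FPKM in NT and 11.6 and 13.4 in TAM cells with DMSO, and 3.13 and 1.87 in NT and 2.19 and 1.61 in TAM cells with TPL. The NT, TAM and TPL-treated libraries formed 3 separate ranges, with the TPL-treated groups overlapping each other. AJUBA was called lower with TPL in NT cells at -4.38 (SE 0.317, adjusted p = 0.0003 by edgeR), and in TAM cells it fell by 2.83 (SE 0.309, adjusted p = 0.0011). Between TAM and NT cells it fell by 1.90 (SE 0.276, adjusted p = 0.0093).

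**Figure D2:**
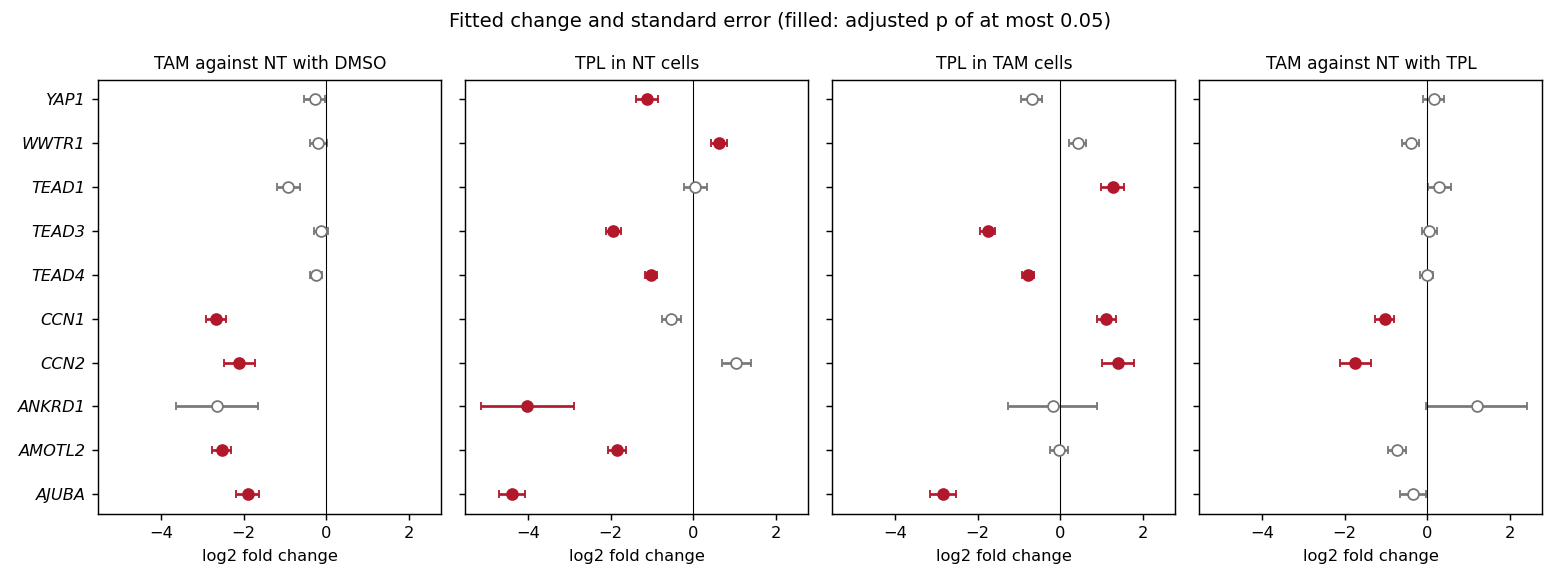
Fitted log2 fold change (horizontal axes) of the 10 genes in 4 comparisons, with bars of 1 standard error and filled points where the adjusted p is at most 0.05. In TAM against NT cells with DMSO all 10 points lie below 0, and CCN1, CCN2, AMOTL2 and AJUBA are filled. With TPL, AJUBA lies at -4.38 in NT and -2.83 in TAM cells, and CCN1 and CCN2 lie above 0 in TAM cells.

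The difference between the TPL effects was above 0 for 9 of the 10 genes, with a median of 0.82 against -0.02 over all genes. This difference holds the DMSO libraries of the first comparison with opposite sign. There all 10 were below 0, so it is no separate result. None of the 10 passed an adjusted p of 0.05 in edgeR, at which 0.0885% of all genes passed upwards and 0.0767% downwards, whereas 5 were above 0 at an unadjusted p under 0.05 (5.03% of all genes) and DESeq2 called 2 upwards (0.478%). In TAM against NT cells with TPL, CCN1 and CCN2 fell (4.21% of all genes) and none of the 10 rose, with 0 called by edgeR (0.236% of all genes called lower and 0.360% higher), 3 lower at an unadjusted p under 0.05 (12.2%) and 1 called lower by DESeq2 (2.17%). By scaled counts, 4 of the 10 were lower in both TAM + TPL libraries than in both NT + TPL libraries, against 25.0% of all genes.

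How firmly these values stand differed between genes. With TPL in NT cells, AJUBA, TEAD3, AMOTL2 and TEAD4 stayed at an adjusted p of at most 0.05 in 11 of 11 other fits and with each of the 8 libraries left out in turn, and so did AJUBA and TEAD3 in TAM cells and CCN1 and AMOTL2 in TAM against NT cells with DMSO. YAP1 in NT cells did not pass without NT replicate 2 (adjusted p = 0.0825) or NT + TPL replicate 2 (0.0722). WWTR1 did not pass without any 1 of 7 libraries (0.0698 to 0.228), the exception being NT + TPL replicate 2. ANKRD1 did not pass without any 1 of the 4 NT or NT + TPL libraries (0.0828 to 0.154). All adjusted p-values here are from edgeR.

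In TAM cells the rises of TEAD1 and CCN1 with TPL did not pass without any 1 of the 4 TAM or TAM + TPL libraries (adjusted p by edgeR between 0.0630 and 0.0903 and between 0.0570 and 0.0800). The rise of CCN2 did not pass without TAM replicate 1 (0.130) or either TAM + TPL library (0.130 and 0.0843), nor the fall of TEAD4 without TAM replicate 1 (0.0564) or TAM + TPL replicate 1 (0.0664). In TAM against NT cells with DMSO, AJUBA did not pass without NT replicate 2 (0.0638) or either TAM library (0.0949 and 0.0818). CCN2 did not pass there without NT replicate 2 (0.118), TAM replicate 1 (0.0984) or either TAM + TPL library (0.0576 and 0.0569). With TPL, the lower levels in TAM cells did not pass without any 1 of 6 libraries for CCN1 (0.0764 to 0.240, all but the NT libraries) and any 1 of the 4 TPL-treated libraries for CCN2 (0.0675 to 0.233). In the 11 other fits CCN1 passed there in 6 and CCN2 in 11. With DMSO, the lower level of CCN2 in TAM cells passed in 10 of 11, as did its rise with TPL in those cells and the fall of YAP1 in NT cells. ANKRD1 passed in NT cells in 7 of the 8 fits that gave it a value. The fitted direction of each of these changes was the same in every such fit.

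The levels of the 10 genes can be ranked within a group, since FPKM is scaled by length. In NT cells the order by mean was CCN1 (103 ± 34.5 FPKM, SD, n = 2), AMOTL2 (72.3 ± 9.68), AJUBA (46.4 ± 3.96), YAP1 (29.2 ± 8.97), TEAD4 (28.4 ± 2.19), TEAD3 (11.5 ± 0.424), TEAD1 (11.2 ± 4.26), CCN2 (8.92 ± 2.96), WWTR1 (8.56 ± 1.56) and ANKRD1 (1.18 ± 0.347). CCN1 overlapped AMOTL2, YAP1 overlapped TEAD4, and TEAD3, TEAD1, CCN2 and WWTR1 overlapped their neighbours in turn. In TAM cells YAP1 (23.8 ± 1.85 FPKM) and TEAD4 (23.6 ± 1.82) came first and overlapped, and CCN1 (15.97 ± 0.545) was next. With TPL, CCN1 was first in both kinds of cell, at 71.4 ± 10.2 FPKM in NT + TPL and 35.6 ± 1.91 in TAM + TPL (SD, n = 2). Together the 10 genes took 1038 and 1392 CPM (counts scaled to library totals) in NT and 440 and 466 in TAM cells with DMSO, and 697 and 524 in NT and 459 and 492 in TAM cells with TPL.

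RNAPII peaks were listed once per condition, with no height and no replicates, so their presence and width are given as values without a test. The peak names of each list name replicate 1 alone, so these values may rest on 1 ChIP sample per condition. A TSS of 9 of the 10 genes lay within a listed peak in the NT list, 8 in the NT + TPL list, 8 in the TAM list and 7 in the TAM + TPL list, against 50.7, 40.9, 46.2 and 40.0% of protein-coding genes. Those shares are over all coding genes, expressed or not, whereas all 10 members passed the filter on low counts. The shares are therefore not matched for expression. ANKRD1 (chromosome 10, 92671853 to 92680844, minus strand) had no listed peak in any condition, and the nearest lay 48965 bases away or more. TEAD3 (chromosome 6, 35441374 to 35464856, minus strand) had a peak in NT cells alone, of 681 bases, and in TAM cells the nearest lay 154 bases away. AJUBA had none in TAM + TPL. Each comparison of lists thus lost 1 member, TEAD3 from NT to NT + TPL and from NT to TAM and AJUBA from TAM and from NT + TPL to TAM + TPL, where 22.9, 14.8, 19.1 and 9.88% of coding genes with a peak over the canonical TSS in the former list lost it. The TAM list carries another threshold in its peak names (q of 0.1, against a cutoff of 0.02 in the other 3). Whether the cutoff is also a q value is not given. Peaks of the whole list had a median width of 632 bases in NT and 406 in TAM cells with DMSO, and of 553 and 455 with TPL.

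The peak over the CCN1 start (chromosome 1, 86046444, plus strand) spanned the gene in NT cells, with 4753 bases, and in NT + TPL cells, with 5025 bases. It was 993 bases wide in TAM and 1356 bases wide in TAM + TPL cells. The gene itself runs from 86046444 to 86050272, so the wide peaks reached past its end and the narrow ones stopped within it. CCN2 (chromosome 6, 132269316 to 132272512, minus strand) had peaks of 561 bases in NT and 238 in TAM cells with DMSO, and of 874 and 369 bases with TPL. In both genes the listed peak was wider with TPL than without in each kind of cell, and narrower in TAM than in NT cells. For coding genes with start peaks in both lists, the median width ratio of TAM to NT was 0.696 with DMSO and 0.860 with TPL. The median ratio of TPL to DMSO was 0.877 in NT and 1.04 in TAM cells. The TAM list also carries another threshold in its peak names.

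AJUBA (chromosome 14, 23440386 to 23451760, minus strand) had a peak of 5078 bases over its start in NT cells, with a second of 1152 bases further into the gene. The start peak was 448 bases wide in NT + TPL and 1041 in TAM cells. AMOTL2 (chromosome 3, 134074189 to 134094321, minus strand) had 2439 bases in NT, with a second peak of 5477 bases inside the gene, and 1070, 509 and 255 bases in NT + TPL, TAM and TAM + TPL cells. For both genes the NT list held the widest start peak.

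YAP1 (chromosome 11, 101981178 to 102104155, plus strand) had a start peak of 2378 bases in NT and 1893 in TAM cells with DMSO, and of 862 and 2391 bases with TPL, so that with TPL the peak was narrower in NT and wider in TAM cells. WWTR1 (chromosome 3, 149235022 to 149454501, minus strand) had 1357, 896, 580 and 931 bases in the same order. TEAD1 (chromosome 11, 12695968 to 12966284, plus strand) had 781, 269, 548 and 346. TEAD4 (chromosome 12, 3068496 to 3149842, plus strand) had 1634 bases in NT and 1284 in TAM, against 191 in NT + TPL and 300 in TAM + TPL, where a second peak of 328 bases followed. Of the members with a peak over the canonical TSS in both lists, 2 of 8 were wider with TPL in NT cells, against 37.1% of coding genes, and 5 of 7 in TAM cells, against 55.1%. Between TAM and NT cells 0 of 8 were wider in TAM, against 9.66%, and with TPL 3 of 7 were, against 28.0%.

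**Figure D3:**
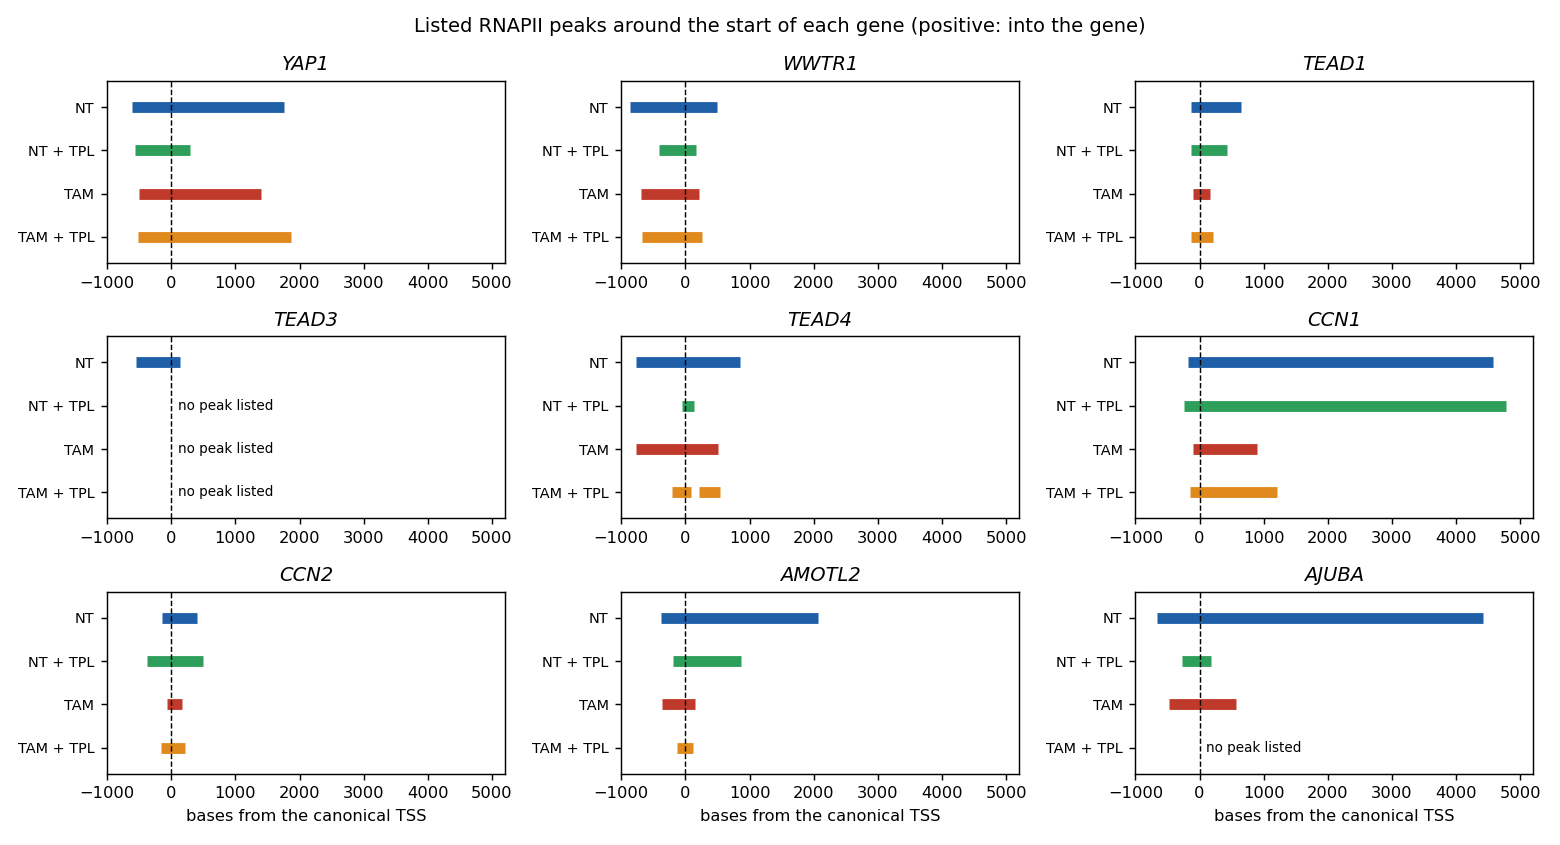
Listed RNAPII peaks around the canonical TSS (dashed line) of 9 genes, with bases from the TSS on the horizontal axes (positive values into the gene) and 1 row per condition. CCN1 has peaks of 4753 and 5025 bases in NT and NT + TPL and of 993 and 1356 bases in TAM and TAM + TPL, and AJUBA has 5078 bases in NT and none in TAM + TPL. ANKRD1 has no peak, and the second peaks of AMOTL2 and AJUBA, deeper in the gene, are not drawn.

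A wider list of 16 other known YAP target genes, all of them tested, is set beside the 5 target or partner genes. It too was chosen with earlier results of these data known, so it is no independent check of them. In TAM against NT cells with DMSO, 7 of the 16 fell (3.39% of all genes) and 1 rose (3.46%) at the same adjusted p of 0.05, with a median log2 fold change of -0.83 against -0.03. CCDC80, a secreted matrix protein gene, was called lower at -4.52 (SE 0.199, adjusted p = 9.1e-05 by edgeR), with 66.7 and 72.6 FPKM in NT and 3.14 and 3.0 in TAM cells. RBMS3, an RNA-binding protein gene, was called lower at -2.54 (SE 0.208, adjusted p = 0.00095). NT5E, which encodes the cell-surface enzyme CD73, was called higher at 3.90 (SE 0.198, adjusted p = 0.00013), with 11.0 and 14.4 FPKM in NT and 177 and 197 in TAM cells. CCDC80 and NT5E were also called between TAM and NT cells with TPL, at -4.41 and 6.09.

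With TPL, 8 of those 16 fell and 1 rose in NT cells (19.8% and 17.2% of all genes, again at an adjusted p of 0.05). In TAM cells 3 fell and 3 rose, shares close to the 18.6% and 14.3% of all genes. F3, which encodes tissue factor, FJX1, a secreted signalling protein gene, and FOXF2, a forkhead factor gene, were called lower in both. F3 had 392 and 456 FPKM in NT and 265 and 296 in TAM cells with DMSO, and 11.2 and 16.7 in NT and 20.9 and 16.5 in TAM cells with TPL. The fitted change of F3 was -4.95 (SE 0.268) in NT and -3.95 (SE 0.256) in TAM cells on the log2 scale, FJX1 had -3.58 and -4.21, and FOXF2 had -4.75 and -5.64 (adjusted p by edgeR between 0.0002 and 0.00032). NT5E was called lower in NT cells alone, at -2.0 (SE 0.198, adjusted p = 0.00073). The median over the 16 was -0.79 in NT and 0.02 in TAM cells. The difference between the TPL effects passed 0.05 upwards for 1 of the 16 (0.0885% of all genes) and downwards for 0. At an unadjusted p under 0.05 by edgeR, 5 were above 0 (5.03% of all genes) and 0 below. The median difference was 0.58, against -0.02 over all genes. Here too the difference holds the DMSO libraries of the comparison of TAM with NT cells, with opposite sign.

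**Figure D4:**
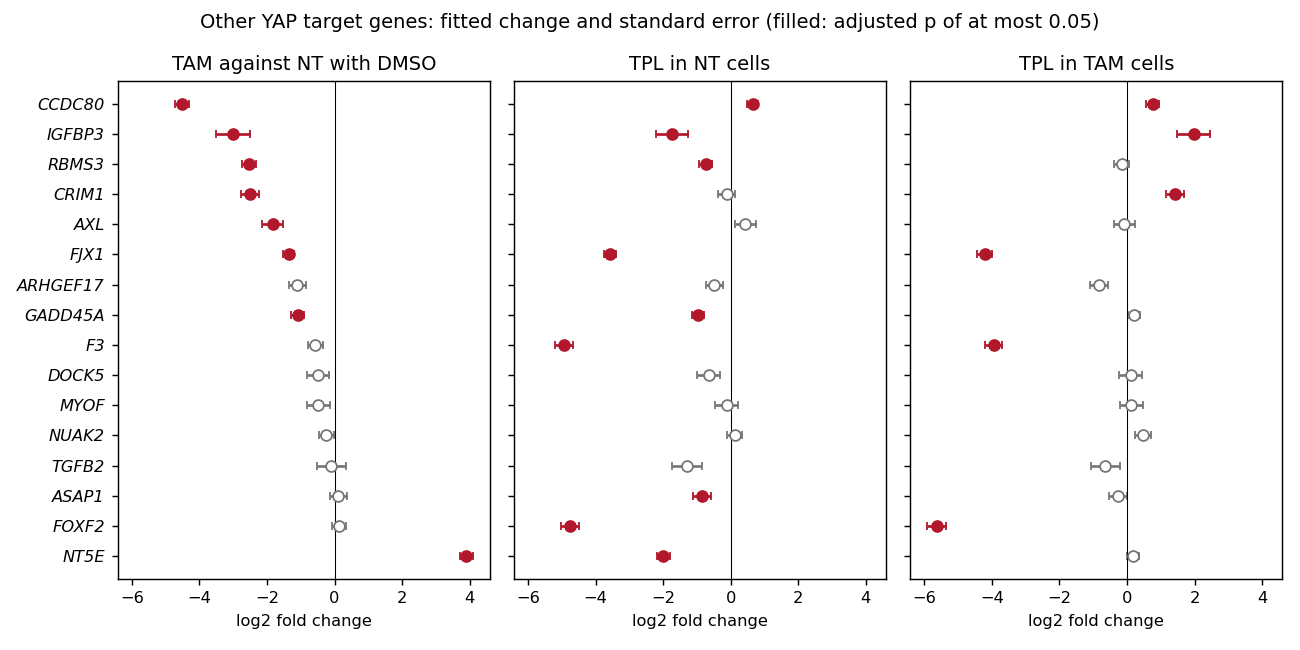
Fitted log2 fold change with bars of 1 standard error (horizontal axes) for 16 other YAP target genes in 3 comparisons, ordered by the first, with filled points at an adjusted p of at most 0.05. CCDC80 at -4.52 and NT5E at 3.90 mark the ends of the first comparison, and F3, FJX1 and FOXF2 lie at -3.58 or below in both TPL comparisons.

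Of 26 other genes of the pathway, most of them upstream regulators, 24 were tested. The list also holds TEAD2, the remaining TEAD gene, and the TEAD cofactors VGLL1, VGLL3 and VGLL4. TEAD2, named here after its values were seen, measured 11.2 to 14.2 FPKM over the 8 libraries and passed in none of the comparisons. With TPL, 7 fell and 0 rose in NT cells and 7 fell and 0 rose in TAM cells at an adjusted p of at most 0.05 (unadjusted p under 0.05 upwards for 1 in each, against 23.7% and 21.0% of all genes), beside 19.8% and 18.6% of all genes that fell. AMOTL1, which like AMOTL2 encodes an angiomotin, was called lower in NT cells at -2.66 (SE 0.270, adjusted p = 0.0008 by edgeR), as was FRMD6, a FERM-domain gene, at -3.07 (SE 0.298, adjusted p = 0.00068). WWC1, which encodes the scaffold KIBRA, measured 21.4 and 23.8 FPKM in NT and 105 and 89.6 in TAM cells with DMSO, and 25.2 and 22.7 in NT and 30.0 and 30.5 in TAM cells with TPL. The TAM libraries stood apart from the other 6. WWC1 was called higher in TAM than in NT cells at 2.13 (SE 0.138, adjusted p = 0.00043) and called lower with TPL in TAM cells at -1.74 (SE 0.136, adjusted p = 0.00042). The 7 that fell in TAM cells include VGLL3, whose reads the files divide among 3 entries, so that its value is uncertain. For the 24 genes, the difference between the TPL effects passed 0.05 downwards for 1 (0.0767% of all genes) and upwards for 0.

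The genes most like 4 of the members were sought among 14418 genes with a mean of at least 1 FPKM, by Pearson's r of log2(FPKM + 1) over the 8 libraries. They were CHML, CPEB2 and G3BP2 for YAP1 (r between 0.988 and 0.996), SF3B1, PPP1R12B and DOCK8 for TEAD1 (0.960 to 0.976), CRIM1, PALLD and CTNNAL1 for CCN1 (0.974 to 0.980) and FKBP7, SIMC1P1 and ANG for CCN2 (0.973 to 0.980). CRIM1, itself in the list of other targets, measured between 5.10 and 36.6 FPKM. Among the members, the highest r was that of TEAD3 with TEAD4, 0.983, a pair that shares reads, followed by TEAD4 with AJUBA at 0.954. With 8 libraries in 4 groups, such values follow differences between groups and between replicates alike, and carry no test. TEAD1, at 8.17 and 14.2 FPKM in NT and 14.0 and 9.36 in NT + TPL, differed more between replicates than between the means of these groups.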

How the data were processed

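RNA-Seq was made from 8 libraries (2 per group) and RNAPII ChIP-Seq from 8 samples and 2 inputs. Expected counts, deposited without scaling, were estimated by the authors from poly-A RNA with Bowtie2 and RSEM. FPKM, also deposited by the authors from RSEM, divide them by effective transcript length and library size. The peak positions (bases, hg19) were deposited by the authors as 1 list per condition of peaks over a TSS, called over input with MACS (1.4.2 in the processing notes). The peak names carry the tags NT1, NTT1, T1 and TT1, which name replicate 1 alone. Whether both ChIP replicates entered a list is not given in the sources used here. Positions here count from 1.

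The deposited tables omit genes that had no read, and these were set to 0. Symbols came from a RefSeq table, by gene ID (21077) or accession (2384), and 143 entries were not matched. After rounding, the test was that of edgeR 4.0.16 (R 4.3.3) by quasi-likelihood, with TMM factors, its own filter by group and the Benjamini-Hochberg adjustment, in 1 fit of 4 groups, which share the spread of 2 replicates per group. Common dispersion was 0.099. The study's methods call the replicates of RNA-Seq independent and biological, and the labels number them without saying more. Replicates differed by more than sampling noise. A call needed an adjusted p no higher than 0.001 with a log2 fold change of 1.2 or more either way, as in the study's methods, and "rose" and "fell" need an adjusted p of at most 0.05, a rule added after seeing the data. The fit was run on simulated counts with a lower dispersion than the data and large changes put in. That run does not show how well the fit finds changes here.

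The members and lists were chosen with earlier results of these data known. Named genes are the 10 members, every called gene of the lists of other pathway genes and other targets (otherwise the 3 with the smallest p), the 3 genes most like YAP1, TEAD1, CCN1 and CCN2, and GAPDH. Start sites were those of GENCODE release 44 on build 37. Promoters were read from the build 37 genome at canonical TSSs in place of the RefSeq promoter table, so that they match the build of the peaks. Alternatives were DESeq2 1.42.0, limma 3.58.1 on log2(FPKM + 1) and log2(FPKM + 0.1), other scalings, filters and thresholds, a replicate block, a fit of the groups compared, and each library left out. TPL was given at 125 nM for 4 h. ChIP signal was not used here.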

Additional observations from a re-analysis of the deposited data

Results flagged for a closer look

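The fitted effect of TPL on CCN1 had opposite signs in NT and TAM cells. In scaled counts, both NT + TPL libraries (177 and 153 CPM) lay below both NT libraries (182 and 295), and both TAM + TPL libraries (78.1 and 83.6) lay above both TAM libraries (36.5 and 38.5). The difference between the TPL effects was 1.64 on the log2 scale, and its edgeR test gave an adjusted p of 0.157 (from 4.9e-05 in DESeq2 to 0.487 with a library left out over the alternatives). In FPKM the NT and NT + TPL values of CCN1 overlapped.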

How the results depend on the processing

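At 0.001 the number of the 10 genes called was unstable. TPL in NT cells called 2 genes, which became 4 at an adjusted p of 0.05, 7 at 0.05 with any fold (chosen after seeing the data), and 0 when only the groups compared were fitted. TPL in TAM cells called 1, which became 4 with DESeq2 or at 0.05, 6 with any fold, 2 with at least 10 counts in every library, with either limma fit or with no filter, and 0 in the fit of the groups compared, with GAPDH scaling or with upper quartile scaling. TAM against NT with DMSO called 0, which became 4 with DESeq2, at 0.05 and with any fold, 3 with at least 10 counts, 2 with limma on log2(FPKM + 1) or no filter, and 1 with log2(FPKM + 0.1) or GAPDH scaling. TAM against NT with TPL called 0, and DESeq2 or 0.05 gave 1 and any fold 2, and the difference of the TPL effects called 0 and 2 with DESeq2. With 1 library left out, a lone library being assumed to vary like the other groups, the numbers ran from 0 to 1 (TPL in NT), 0 to 2 (TPL in TAM) and 0 to 1 (TAM against NT with DMSO). With peaks of at least 500 bases, 3 of the 10 genes had a TAM + TPL peak in place of 7. Of 1073 fitted values of single genes under alternatives, 34 changed sign, none of them in a change that passed 0.05. The 1073 include the values at other thresholds, which reuse the main fit and cannot change sign.

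With a replicate block, 0 genes were called in each comparison, against 2 and 1 without it for TPL in NT and TAM cells. Replicate numbers are shared across groups, but deviations of same-numbered libraries correlated between -0.208 and 0.086, so the libraries were not treated as pairs. Within a group, members could still move together between replicates. In FPKM, all of the 10 genes but TEAD3 and TEAD4 were higher in NT replicate 2 than in NT replicate 1.

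The sign changes were in AMOTL2 with TPL in TAM cells (0.039 with at least 10 counts, 0.015 by library size, 0.012 and 0.011 in the limma fits, 0.20 by upper quartile, and -0.15 to 0.068 with a library left out), ANKRD1 there (0.043 by upper quartile, -1.49 to 1.28 with a library left out) and TEAD1 with TPL in NT cells (-0.36 with GAPDH, -0.31 to 0.49 with a library left out). For TAM against NT with TPL they were in TEAD4 (0.017 with DESeq2 and with its size factors, 0.0081 by library size, 0.0006 in limma, 0.0069 in the groups compared, 0.038 by upper quartile), TEAD3 (-0.19 with GAPDH) and YAP1 (-0.059 with GAPDH). With a library left out, the ranges there were -0.054 to 0.075 for TEAD4, -0.024 to 0.17 for TEAD3, -0.031 to 0.42 for YAP1, -0.72 to 0.24 for AJUBA and -0.093 to 1.92 for ANKRD1. In TAM against NT with DMSO the ranges were -0.38 to 0.0038 for WWTR1 and -0.57 to 0.079 for YAP1. In the difference of the TPL effects they were -0.079 to 1.01 for CCN2 and -0.44 to 0.057 for WWTR1, which had 0.063 with GAPDH scaling. The cause was not tested. Scaling to GAPDH moved the median of all genes to between -0.50 and -0.07 in the 4 comparisons of groups and to 0.22 in the difference of the TPL effects, and upper quartile scaling to 0.31 and 0.29 in the TPL comparisons. Depth limits ANKRD1, at 1 to 23 counts.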
